A study of Mus musculus with 16 samples.

Results

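Tgfb1 and Gdf11, genes for ligands of the transforming growth factor beta (TGF-beta) superfamily, were followed in haematopoietic stem and progenitor cells of mouse bone marrow. They are 2 of the 6288 genes of the table, matched by Ensembl identifier, and were selected on results of the same normalized counts in the same libraries, with no contrast named. Their levels and differences are therefore given as descriptions with no p-value. Of 149 TGF-beta family genes listed by role, the pair included, the table held 54, and 51 besides the pair could be tested.

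The 16 libraries are bulk RNA sequencing of CD45-positive cells after enrichment for LSK cells (no lineage markers, with Sca1 and Kit), the compartment of stem cells and early progenitors. The 4 groups, with 4 replicates each, were Tet2-deficient cells in physioxia, Tet2-deficient cells in air, wild-type (WT) cells in physioxia and WT cells in air. All donors were C57Bl/6J mice of 3 to 4 months and of both sexes, and the deficient mice were Tet2-/-, which lack an enzyme of DNA demethylation. Marrow was collected at 3% oxygen in all groups. Cells of the physioxia groups stayed there, and those of the air groups then spent 6 hours in ambient air (about 21% oxygen) before RNA was extracted. Enrichment was by depletion and positive selection kits and not by a sort, and the labels do not say whether a library came from 1 animal or from a pool. They say that the enriched cells were divided between the oxygen conditions, but not that a replicate number marks the same cells.

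TGF-beta1, the product of Tgfb1, is secreted as a latent complex with its own propeptide and must be released before it can bind its receptors. It is known as a brake on the cycling of haematopoietic stem cells, with megakaryocytes, macrophages and T cells among its sources. GDF11 belongs to the myostatin and activin branch, patterns the axial skeleton in the mouse embryo and has been studied as a regulator of red cell maturation. Both ligands bind serine/threonine kinase receptors that phosphorylate SMAD2 and SMAD3, which then act with SMAD4 on transcription.

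Tgfb1 (ENSMUSG00000002603) lies on the plus strand of GRCm38 chromosome 7, from 25687002 to 25705077, with 5042 exonic bases. Gdf11 (ENSMUSG00000025352) lies on the minus strand of chromosome 10, from 128882295 to 128891718, with 4062 exonic bases. The exons of neither gene overlap those of another annotated gene. The 250 bases before each start (RefSeq, GRCm38.p6) are shown because the levels of the pair lay in opposite order between oxygen conditions in WT cells, so that their promoters can be compared. Capitals mark matches on either strand to the GC box GGGCGG, the CCAAT box and the hypoxia-inducible factor core motifs ACGTG and GCGTG, and overlapping matches run together.
Tgfb1 promoter, chr7:25686752-25687001, plus strand: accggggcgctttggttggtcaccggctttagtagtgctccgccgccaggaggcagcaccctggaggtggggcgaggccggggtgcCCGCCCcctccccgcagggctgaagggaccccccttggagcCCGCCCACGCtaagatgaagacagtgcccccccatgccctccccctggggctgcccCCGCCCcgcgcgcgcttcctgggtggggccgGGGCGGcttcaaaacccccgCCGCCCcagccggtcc
Gdf11 promoter, chr10:128891719-128891968, minus strand: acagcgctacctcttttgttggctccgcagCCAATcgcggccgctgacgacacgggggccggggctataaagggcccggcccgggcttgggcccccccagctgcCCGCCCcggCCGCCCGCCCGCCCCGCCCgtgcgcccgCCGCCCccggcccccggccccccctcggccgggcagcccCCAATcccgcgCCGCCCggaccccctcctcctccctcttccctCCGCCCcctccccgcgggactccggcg

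Both windows were rich in G and C, at 75.2% for Tgfb1 and 81.2% for Gdf11, against a median of 52.4% over 32851 promoters. GC boxes numbered 5 in the Tgfb1 window and 8 in the Gdf11 window, and 32.7% of all promoters held at least 1. GCGTG matched 1 time before Tgfb1, overlapping a GC box, and not before Gdf11, and 28.2% of promoters held it. CCAAT matched 2 times before Gdf11 and not before Tgfb1 (33.8% of promoters). Neither window held ACGTG (16.6% of promoters), the AP-1 motif TGANTCA (6.7%) or the SMAD motif GTCTG (42.2%). These matches describe letters in a window and not binding.

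Reads in the table came to 7.77 to 15.7 M per library. Tet2 stood at 482 ± 36.0 and 554 ± 54.1 normalized counts in Tet2-deficient cells in physioxia and air, against 731 ± 97.4 and 855 ± 157 in WT cells (mean ± SD of 4 libraries, here and for every mean below), so it was lower (limma adjusted p = 0.00267 in physioxia and 0.00223 in air) but still detected in the deficient libraries. Which part of Tet2 the allele removes is not given in the sources used here. Some libraries stood apart from their group. Over 13 of 14 listed erythroid markers, the mean log2 level was 11.7, 13.6, 12.3 and 11.6 in the Tet2-deficient physioxia libraries, in order of replicate, and 11.7, 11.6, 13.8 and 12.5 in those of Tet2-deficient air. WT libraries lay between 10.4 and 11.0 in physioxia and between 10.1 and 10.8 in air. WT air replicates 1 and 2 were the highest of their group in the mean log2 level of monocyte and of T cell markers, as were WT physioxia replicates 1 and 2. Stem and multipotent progenitor markers were present in every library (6 of 14 listed were in the table), and so were the leukocyte genes Itgb2 and Coro1a, while the CD45 gene Ptprc was not analysed here. In bulk RNA, fewer cells of a type and less RNA per cell cannot be told apart.

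Tgfb1 was lowest in WT cells in air, and its means in the physioxia groups differed by less than their SD. It had 1409, 1225, 1314 and 1841 normalized counts in Tet2-deficient physioxia replicates 1 to 4, and 593, 361, 1415 and 1846 in the Tet2-deficient air libraries, in the same order. In WT cells it had 1879, 1038, 1335 and 1250 in physioxia and 438, 392, 926 and 301 in air. Each WT physioxia library lay above each WT air library, while the Tet2-deficient air libraries were split, with replicates 1 and 2 within the range of WT air and replicates 3 and 4 within the range of WT physioxia. The means were 1447 ± 273 in Tet2-deficient physioxia, 1054 ± 695 in Tet2-deficient air, 1375 ± 359 in WT physioxia and 515 ± 280 in WT air. In this descending order of means (Tet2-deficient physioxia, WT physioxia, Tet2-deficient air, WT air) the ranges of every pair of neighbours overlapped.

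Gdf11 ran the other way in WT cells. It had 65.0, 64.8, 42.1 and 57.6 normalized counts in Tet2-deficient physioxia and 81.0, 81.6, 41.03 and 44.02 in Tet2-deficient air, replicates 1 to 4 each. In WT cells it had 40.1, 25.8, 27.2 and 40.1 in physioxia and 92.3, 53.3, 115 and 89.0 in air. Every WT physioxia library was below every WT air library and below every Tet2-deficient physioxia library. The means were 57.4 ± 10.7 in Tet2-deficient physioxia, 61.9 ± 22.4 in Tet2-deficient air, 33.3 ± 7.86 in WT physioxia and 87.3 ± 25.3 in WT air. By mean the descending order was WT air, Tet2-deficient air, Tet2-deficient physioxia and WT physioxia. Of these neighbours, Tet2-deficient air overlapped with WT air and Tet2-deficient physioxia with Tet2-deficient air, whereas Tet2-deficient physioxia did not overlap with WT physioxia. Gdf11 rested on 28 to 104 reads per library, so counting error was wide: the lowest value, in WT physioxia replicate 2, had an exact 95% Poisson interval of 17.2 to 37.3, and the highest, in WT air replicate 3, of 93.6 to 139. Tgfb1 rested on 315 to 2181 reads. These intervals cover counting error only.

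**Figure D1:**
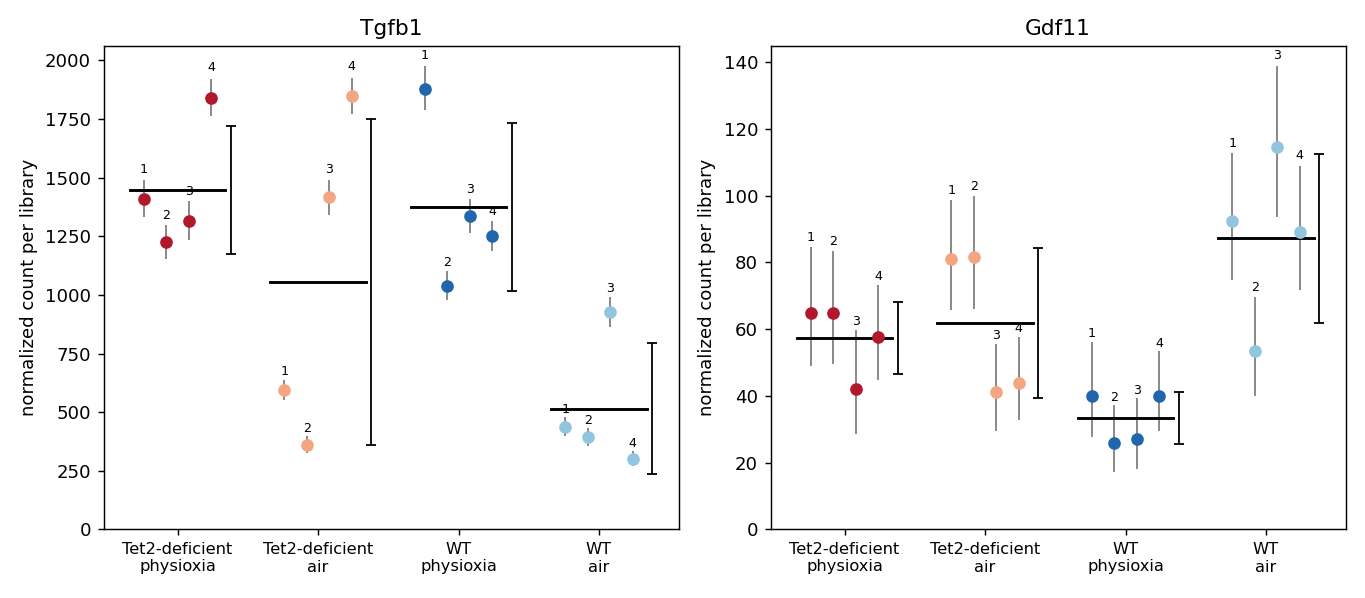
Normalized counts of Tgfb1 and Gdf11 (vertical axes) in each of the 16 libraries by group. Points are libraries, numbered by replicate, grey bars their exact 95% Poisson intervals, and black lines and bars the group mean and SD. Tgfb1 in Tet2-deficient air is split, with 593 and 361 in replicates 1 and 2 and 1415 and 1846 in replicates 3 and 4.

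In WT cells, physioxia went with more Tgfb1 and less Gdf11 than air. Tgfb1 averaged 2.67 times as many counts in WT physioxia as in WT air, a log2 difference of 1.52 ± 0.42 (± SE of the fit on log2 of the normalized count plus 1, as for all log2 differences). For Gdf11 the ratio of means was 0.382 and the log2 difference −1.34 ± 0.30. Groups without overlap were found in this contrast for 7.82% of 6110 tested genes with the physioxia libraries higher and 3.16% with them lower. In WT cells the replicate numbers paired the libraries of the 2 oxygen conditions by their shared deviations over genes. Within these pairs, replicates 1 to 4, Tgfb1 differed by 2.10, 1.40, 0.53 and 2.05 on the log2 scale, physioxia minus air. Gdf11 differed by −1.18, −1.02, −2.03 and −1.13. The groups did not overlap for either gene, so any pairing would give the same signs. With each genotype and replicate number as a block over all libraries, the SE of the differences was 0.33 for Tgfb1 and 0.25 for Gdf11. That fit also paired the Tet2-deficient libraries by number, and its estimate of spread is shared by both genotypes.

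Markers of cells that can supply TGF-beta1 overlapped in range between these groups, but part of them moved with oxygen within the WT pairs. The summed normalized counts of the 8 of 15 megakaryocyte and platelet markers in the table ran from 6626 to 11519 in WT physioxia and from 6914 to 11217 in WT air. Those of the 7 of 14 monocyte and macrophage markers ran from 15326 to 32430 in WT physioxia and from 14669 to 26772 in WT air, with C1qc at 0 in WT air replicate 3. Those of the 10 of 13 T and NK cell markers ran from 26904 to 43439 in WT physioxia and from 29591 to 33778 in WT air. Within the pairs, the monocyte sum was higher in physioxia in 4 of 4, the megakaryocyte sum in 2 of 4 and the T and NK cell sum in 1 of 4. By mean log2 level, the monocyte markers were higher in physioxia in 3 of 4 pairs, as were the T and NK cell markers. The T and NK cell sum mostly followed Nkg7, at 17214 to 40618 over all libraries, while Cd3e reached only 153. The mean log2 level of the megakaryocyte markers was higher in physioxia in 4 of 4 pairs, by 0.16, 0.52, 0.42 and 0.32 for replicates 1 to 4. Both the sum and the mean log2 level of the erythroid markers were higher in physioxia in 4 of 4 pairs, with mean log2 differences of 0.32, 0.22, 0.28 and 0.31. Neutrophil markers, 10 of 13 in the table, were higher by mean log2 level in 4 of 4 pairs, by 0.17, 0.43, 0.80 and 0.92. Their sum was higher in 1 of 4 pairs, and the mean log2 level of stem and multipotent progenitor markers in 2 of 4. The part of these markers in the differences of Tgfb1 and Gdf11 was not tested.

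In Tet2-deficient cells, neither ligand separated the oxygen conditions. The log2 difference between physioxia and air was 0.72 ± 0.42 for Tgfb1 and −0.06 ± 0.30 for Gdf11, and both rested on which Tet2-deficient air libraries were used. Without Tet2-deficient air replicates 3 and 4 the differences were 1.63 for Tgfb1 and −0.52 for Gdf11. Replicates 3 and 4 were the highest of their group in Tgfb1 and the lowest in Gdf11. The direction of each shift on leaving them out therefore follows from the choice. With all libraries, the oxygen difference of Tet2-deficient cells minus that of WT cells was −0.79 ± 0.60 for Tgfb1 and 1.28 ± 0.42 for Gdf11, and without those replicates it was 0.11 and 0.82. In Tet2-deficient cells the replicate numbers did not pair the libraries, so no pairwise differences are given.

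Between genotypes, the Tgfb1 means differed little in physioxia and more in air, with the gap in air resting on a pair of libraries. The log2 difference, Tet2-deficient minus WT, was 0.09 ± 0.42 in physioxia and 0.88 ± 0.42 in air, and in air it was −0.02 without Tet2-deficient air replicates 3 and 4. Gdf11 averaged 1.72 times as much in Tet2-deficient physioxia as in WT physioxia (0.77 ± 0.30), where the groups did not overlap, as was so for 29.7% of tested genes with the Tet2-deficient libraries higher and 28% with them lower (35.2% and 35.5% in air). In air its difference was −0.51 ± 0.30, with 2 of 4 Tet2-deficient libraries below all WT libraries, and −0.05 without the same replicates. Those replicates were the highest of their group in Tgfb1 and the lowest in Gdf11, so both differences had to move this way.

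Across libraries the pair was compared per exonic length. In reads per kilobase on the normalized scale, Tgfb1 averaged 287 ± 54.1 in Tet2-deficient physioxia, 209 ± 138 in Tet2-deficient air, 273 ± 71.1 in WT physioxia and 102 ± 55.6 in WT air. Gdf11 averaged 14.1 ± 2.64 in Tet2-deficient physioxia, 15.2 ± 5.52 in Tet2-deficient air, 8.20 ± 1.94 in WT physioxia and 21.5 ± 6.23 in WT air. The ratio of Tgfb1 to Gdf11 per length was 15.2 to 25.7 in Tet2-deficient physioxia, 25.1 to 39.5 in WT physioxia and 2.73 to 6.51 in WT air. In Tet2-deficient air it was 5.89 and 3.57 in replicates 1 and 2 and 27.8 and 33.8 in replicates 3 and 4. Of the 8 air libraries, the 2 highest in Tgfb1 were also the 2 lowest in Gdf11, and these were Tet2-deficient air replicates 3 and 4. WT air replicate 3 was instead the highest of its group in both genes, at 926 normalized counts of Tgfb1 and 115 of Gdf11. In physioxia the highest in Tgfb1 were WT replicate 1 and Tet2-deficient replicate 4, while the lowest in Gdf11 were WT replicates 2 and 3.

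**Figure D2:**
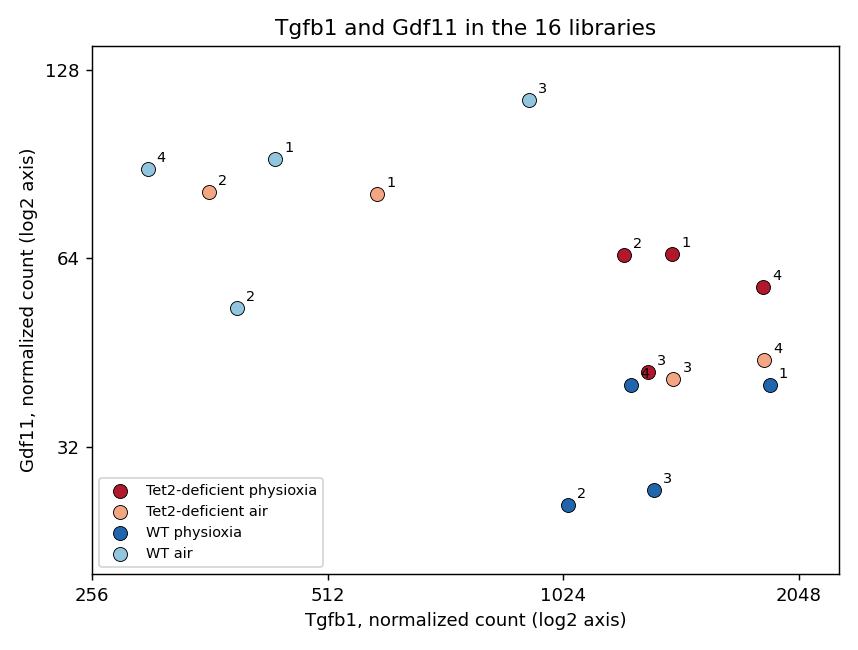
Normalized counts of Tgfb1 (horizontal, log2 axis) and Gdf11 (vertical, log2 axis) in each of the 16 libraries, coloured by group and numbered by replicate. Tet2-deficient air replicates 3 and 4 lie among the physioxia libraries, and replicates 1 and 2 among those of WT air.

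Tet2-deficient air replicates 3 and 4, high in Tgfb1, were also the highest of their group in erythroid markers. Summed erythroid counts were 120190, 119867, 344817 and 162188 in the Tet2-deficient air libraries, in order of replicate, and no WT air library exceeded 54059. None of the 13 markers was at 0. Replicates 3 and 4 had the lowest summed stem and multipotent progenitor counts of the group, at 12940 and 13858, with 18833 and 18406 in replicates 1 and 2. In Tet2-deficient physioxia, replicate 2 was highest in erythroid markers and lowest of its group in Tgfb1. The 10 most abundant genes took 12.3% and 13.1% of the reads in Tet2-deficient air replicates 3 and 4 and 16.2% in each of replicates 1 and 2. The part of these measures in the split was not tested.

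**Figure D3:**
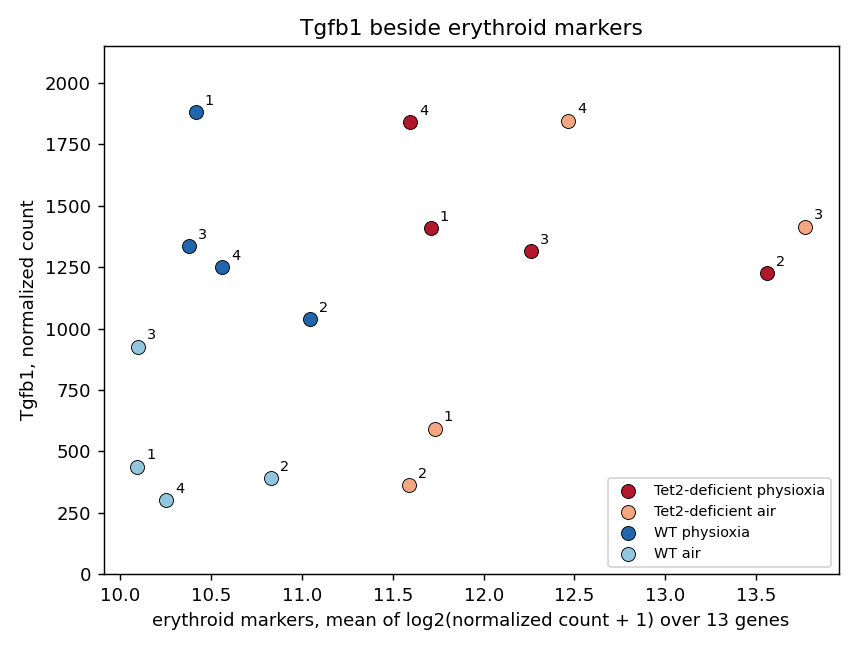
Normalized counts of Tgfb1 (vertical) against the mean of log2(normalized count + 1) over 13 erythroid markers (horizontal) in each of the 16 libraries, coloured by group and numbered by replicate. Tet2-deficient air replicates 3 and 4 are high on both axes, and Tet2-deficient physioxia replicate 2 is high in erythroid markers with Tgfb1 at 1225.

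The genes with profiles nearest to those of Tgfb1 and Gdf11 were found over all 16 libraries, the split Tet2-deficient air libraries included, so that a shared split follows from the choice. Likeness was measured as the root mean square difference of log2 levels after each of 4693 candidate genes was centred on its own mean. It was 0.21 for Snx30, a sorting nexin, 0.28 for Casc3, a core protein of the exon junction complex, 0.29 for the mannosidase gene Man1a, 0.29 for Desi2 and 0.30 for Msl1, a subunit of a histone acetyltransferase complex, where Tgfb1 itself varied by 0.87 around its mean. Casc3 and Msl1 are neighbours whose exons overlap, so some reads could count for either. Snx30 stood at 308, 204, 605 and 775 in Tet2-deficient air replicates 1 to 4, and its means were 679 in Tet2-deficient physioxia, 543 in WT physioxia and 238 in WT air. No gene came as near to Gdf11, but counting error at its 28 to 104 reads per library adds to every such distance. Its nearest were Hsf2, a heat shock transcription factor (0.40), Ano6, a phospholipid scramblase (0.41), the kinase gene Map3k12 (0.42), Exoc6b, an exocyst subunit (0.42), and D3Ertd254e (0.42), where Gdf11 varied by 0.60. None of the 10 is a TGF-beta family gene of the lists, but at most 51 of the 4693 candidates besides the pair were, so this says little.

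**Figure D4:**
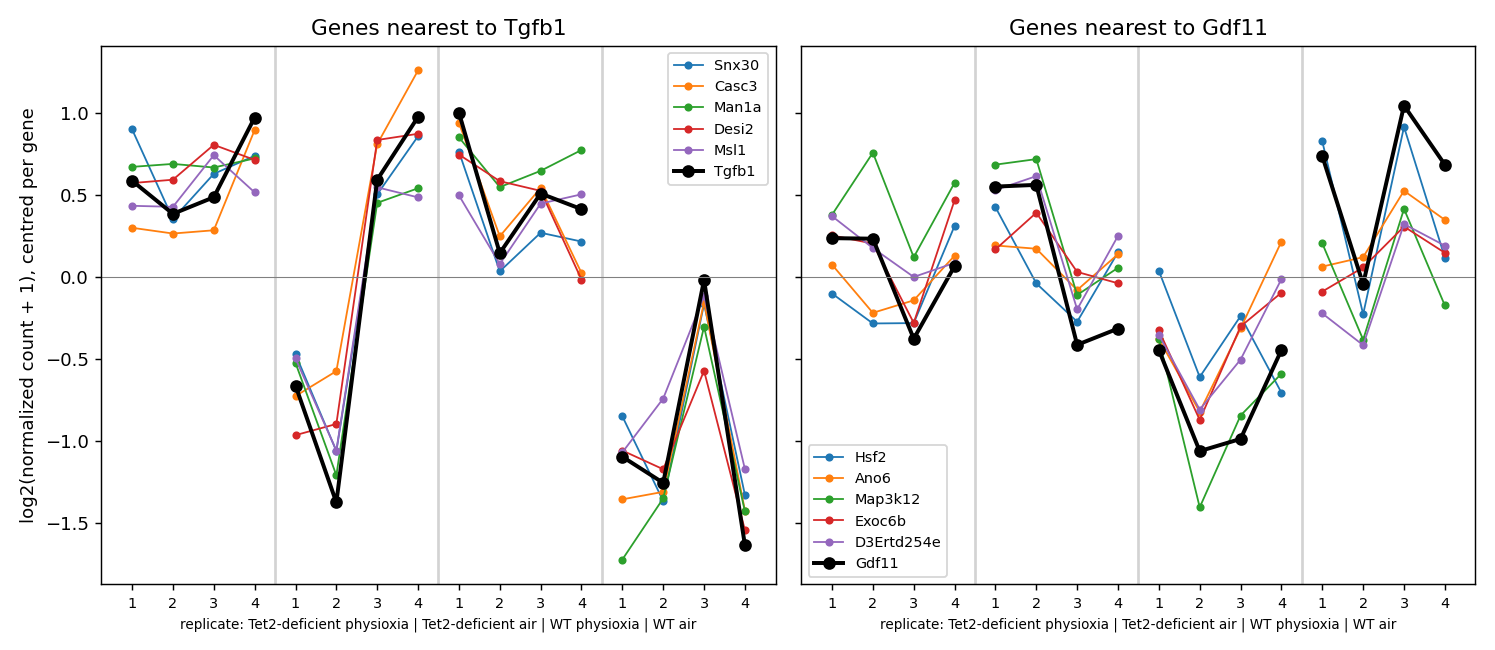
Profiles over the 16 libraries of Tgfb1 (left, black) and Gdf11 (right, black) with the 5 genes nearest to each, as log2(normalized count + 1) centred on the mean of each gene (vertical). Libraries run along the horizontal axis by group and replicate. The 5 genes nearest to Tgfb1, chosen over all of these libraries, are low in Tet2-deficient air replicates 1 and 2 and high in replicates 3 and 4.

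The other TGF-beta family genes were tested between the genotypes with limma over all 6110 genes. In physioxia, 20 of 51 were higher in Tet2-deficient cells and 21 lower, where 69.4% of all tested genes were called (35.9% higher, 33.6% lower), and their median log2 difference was −0.24 against 0.06 for all genes. In air, 19 were higher and 23 lower, where 79.5% of all tested genes were called (42.1% higher, 37.4% lower), and the median was −0.28 against 0.24. Without Tet2-deficient air replicates 3 and 4, 29 of the 51 were called in air, with 2740 of all genes. Without WT air replicates 1 and 2 it was 33, with 3308 of all genes. The filter on low counts was applied again in these runs, so fewer than 6110 genes may have been tested. With quantile normalization 17 were higher and 25 lower in air, where 1984 of all genes were higher and 2303 lower, against 2575 and 2283 with the deposited normalization. How the genes of the table were chosen is not given in the sources used here, and these counts are read against the share of all its genes. Exons of 19 of the 51 overlap those of another annotated gene, among them Bmp4, Furin, Fstl3, Eng, Zfyve9, Usp15, Tgfbrap1, Tgif2, Tgm2 and Timp3, and use of the read strand is not given in the sources used here, so their counts may include reads of the other gene.

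All 3 other ligands measured were higher in Tet2-deficient cells, each at low counts, where 35.9% of all tested genes were higher in physioxia and 42.1% in air. Bmp4, a bone morphogenetic protein, had 53.2, 28.1, 28.5 and 30.1 normalized counts in Tet2-deficient physioxia, against 7.08, 8.30, 4.87 and 9.39 in WT physioxia (2.08 ± 0.33, limma adjusted p = 0.000104). In air it averaged 50.6 ± 17.2 in Tet2-deficient and 6.22 ± 1.46 in WT cells (2.80 ± 0.33, adjusted p = 6.16e-06). The Tet2-deficient and WT libraries did not overlap in either condition. Lefty1, an inhibitor of NODAL signalling, averaged 116 ± 57.9 in Tet2-deficient and 32.9 ± 16.7 in WT physioxia (1.80 ± 0.39, adjusted p = 0.00135) and 108 ± 44.7 in Tet2-deficient and 28.1 ± 10.9 in WT air (1.89 ± 0.39, adjusted p = 0.000966). Inha, the inhibin alpha subunit, averaged 31.9 ± 11.9 in Tet2-deficient and 5.59 ± 4.80 in WT physioxia (2.74 ± 0.64, adjusted p = 0.00202) and 28.0 ± 10.4 in Tet2-deficient and 2.08 ± 1.63 in WT air (3.29 ± 0.64, adjusted p = 0.00055). With 0 to 11 reads per library in WT cells, the size of its fold depends on the pseudocount.

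Of 8 genes of latency, processing and activation, 4 were higher and 3 lower in Tet2-deficient cells in each oxygen condition. Among all tested genes 35.9% were higher and 33.6% lower in physioxia, and 42.1% and 37.4% in air. Furin, the proprotein convertase that cleaves the TGF-beta1 precursor, had 764, 631, 617 and 1038 in Tet2-deficient physioxia, against 1712, 666, 1902 and 1653 in WT physioxia, where WT replicate 2 fell into the Tet2-deficient range (−0.88 ± 0.28, adjusted p = 0.0118). In air its values were 786, 605, 564 and 486 in Tet2-deficient cells, against 1526, 1195, 1879 and 1778 in WT cells, with no overlap (−1.38 ± 0.28, adjusted p = 0.000792). Nrros, which tethers latent TGF-beta1 on macrophages and microglia, was lower in physioxia (−0.51 ± 0.12, adjusted p = 0.00219) and air (−0.70 ± 0.12, adjusted p = 0.000195). The metalloproteinase gene Mmp2 was higher in physioxia (1.96 ± 0.23) and air (1.77 ± 0.23), as were Mmp14 (1.81 ± 0.48 and 2.62 ± 0.48), Bmp1, which processes procollagen and releases latent complexes (1.35 ± 0.32 and 1.35 ± 0.32), and the integrin gene Itgb1 (0.39 ± 0.16 and 0.66 ± 0.16). Itgb5, an integrin subunit that pairs with the alpha V chain to bind latent TGF-beta1, was lower in physioxia (−1.53 ± 0.34) and air (−1.13 ± 0.34). Thbs1, whose product thrombospondin 1 can activate latent TGF-beta1, did not pass (−0.95 ± 0.64 in physioxia, −1.32 ± 0.64 in air).

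Of 4 extracellular antagonists tested in physioxia, 2 were higher and 2 lower, and in air 2 were higher and 1 lower. The shares of all tested genes were 35.9% higher and 33.6% lower in physioxia, and 42.1% and 37.4% in air. Fstl3, a follistatin-like protein that binds activins and GDF11, stood at 24.8 ± 12.4 in Tet2-deficient and 48.1 ± 6.07 in WT physioxia (−1.05 ± 0.30, adjusted p = 0.00631) and at 23.1 ± 3.75 in Tet2-deficient and 61.9 ± 6.99 in WT air (−1.39 ± 0.30, adjusted p = 0.0011). Its Tet2-deficient and WT libraries did not overlap. Fstl1 was higher in both conditions (1.06 ± 0.27 in each), as was Twsg1, a modulator of bone morphogenetic proteins (0.68 ± 0.16 in physioxia and 0.88 ± 0.16 in air). Dand5 was lower in physioxia (−0.82 ± 0.18, adjusted p = 0.00159), and in air its difference was −0.40 ± 0.18 (adjusted p = 0.0553). Nbl1 was below the filter.

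Of 8 receptors and co-receptors, 3 were higher and 4 lower in Tet2-deficient physioxia, and 2 higher and 3 lower in Tet2-deficient air. All tested genes had shares of 35.9% higher and 33.6% lower in physioxia, and 42.1% and 37.4% in air. Among the 8, the signalling receptor genes of TGF-beta1, Tgfbr1 and Tgfbr2, were lower, and its co-receptor genes Tgfbr3 and Eng were higher. Tgfbr2, the type II receptor, had 1123, 935, 867 and 1243 in Tet2-deficient physioxia, against 1961, 1191, 1976 and 2220 in WT physioxia (−0.79 ± 0.18, adjusted p = 0.0017). Only WT replicate 2 lay within the Tet2-deficient range there. In air Tgfbr2 had 1120, 1114, 962 and 805 in Tet2-deficient cells, against 2133, 1767, 2128 and 2235 in WT cells, with no overlap (−1.05 ± 0.18, adjusted p = 0.000205). Tgfbr1, the type I receptor, which GDF11 can also use, was lower in physioxia (−0.64 ± 0.20, adjusted p = 0.0101) and air (−0.72 ± 0.20, adjusted p = 0.00571).

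The co-receptor gene Eng, which encodes endoglin, averaged 3907 ± 326 in Tet2-deficient against 1960 ± 572 in WT physioxia (1.05 ± 0.18, adjusted p = 0.000183) and 3957 ± 288 in Tet2-deficient against 2303 ± 71.2 in WT air (0.78 ± 0.18, adjusted p = 0.00176). Tgfbr3, which encodes betaglycan, was higher in physioxia (0.69 ± 0.16, adjusted p = 0.00177) and air (0.38 ± 0.16, adjusted p = 0.0357). Acvr1b, the activin type I receptor, was higher in physioxia (1.08 ± 0.26, adjusted p = 0.0026), with 0.47 ± 0.26 in air (adjusted p = 0.102). Acvr1 (−1.39 ± 0.33) and the decoy receptor gene Bambi (−0.54 ± 0.14) were lower in physioxia, with −0.53 ± 0.33 and −0.28 ± 0.14 in air, not past the test. Bmpr1a was lower in air (−1.44 ± 0.51, adjusted p = 0.0203), with −1.01 ± 0.51 in physioxia (adjusted p = 0.0889). Whether a genotype difference differed between the conditions was tested for all 51 genes as the interaction, and 0 passed in limma (3 at an unadjusted p under 0.05, as were 8.94% of all genes, and 0 by edgeR or DESeq2).

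Of 14 SMADs and SMAD regulators, 4 were higher and 5 lower in Tet2-deficient physioxia, and 3 higher and 9 lower in Tet2-deficient air. Over all tested genes the shares were 35.9% higher and 33.6% lower in physioxia, and 42.1% and 37.4% in air. Smad2, an effector of both ligands, had 1327, 1214, 1216 and 1283 in Tet2-deficient physioxia, against 1649, 2054, 1567 and 1786 in WT physioxia, without overlap (−0.48 ± 0.11, adjusted p = 0.00144), and was lower in air by a like amount (−0.44 ± 0.11, adjusted p = 0.0024). Smad3, the other effector, was higher in air (0.79 ± 0.27, adjusted p = 0.0174), with 0.57 ± 0.27 in physioxia (adjusted p = 0.0696). Foxh1, a DNA-binding partner of SMAD2 and SMAD3, had 15.4, 47.5, 29.9 and 21.5 in Tet2-deficient physioxia, against 1.18, 4.61, 0 and 0.854 in WT physioxia, without overlap (3.64 ± 0.63, adjusted p = 0.00022). In air it averaged 24.3 ± 17.8 in Tet2-deficient and 5.97 ± 4.32 in WT cells, with overlap (1.76 ± 0.63, adjusted p = 0.0198). Zfyve9, which presents SMAD2 to the receptor, averaged 21.3 ± 6.68 in Tet2-deficient and 6.70 ± 3.92 in WT physioxia (1.75 ± 0.63, adjusted p = 0.0217) and 23.7 ± 12.8 in Tet2-deficient and 8.33 ± 5.88 in WT air (1.49 ± 0.63, adjusted p = 0.0406). At such low counts the size of both folds depends on the pseudocount. The deubiquitinase gene Usp15 (0.45 ± 0.12) and Tgfbrap1, a TGF-beta receptor associated protein (0.46 ± 0.15), were higher in physioxia, with 0.21 ± 0.12 and 0.11 ± 0.15 in air, not past the test. The SMAD phosphatase gene Ppm1a (−0.62 ± 0.11 in physioxia, −0.60 ± 0.11 in air) and the ubiquitin ligase gene Smurf2 (−0.51 ± 0.16, −0.81 ± 0.16) were lower in both conditions. The SMAD corepressor gene Skil was lower in physioxia (−0.58 ± 0.25, adjusted p = 0.0482) and air (−0.73 ± 0.25, adjusted p = 0.0172), and Ski was lower in air (−1.03 ± 0.23), with −0.41 ± 0.23 in physioxia, not past the test. Ldlrad4, an inhibitor of SMAD activation, was also lower (−0.99 ± 0.26 in physioxia, −0.95 ± 0.26 in air). The corepressor genes Tgif1 (−0.26 ± 0.11) and Tgif2 (−0.52 ± 0.21) and the SMAD4 ubiquitin ligase gene Trim33 (−0.49 ± 0.17) were lower in air, with −0.20 ± 0.11, −0.32 ± 0.21 and −0.17 ± 0.17 in physioxia, not past the test. Skil stood at 12266, 12465, 7083 and 5919 in Tet2-deficient air replicates 1 to 4, with replicates 3 and 4 low. In Tet2-deficient physioxia it was split as well, at 10959, 7558, 7174 and 15180, with replicates 2 and 3 low.

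Of 14 genes known to respond to TGF-beta family signals, 4 were higher and 7 lower in Tet2-deficient physioxia, and 5 higher and 7 lower in Tet2-deficient air. Beside them, 35.9% of all tested genes were higher and 33.6% lower in physioxia, and 42.1% and 37.4% in air. Id1, an inhibitor of basic helix-loop-helix factors and a target of bone morphogenetic proteins, had 1268, 1098, 1358 and 954 in Tet2-deficient physioxia, against 393, 337, 244 and 215 in WT physioxia (2.00 ± 0.22, adjusted p = 3.68e-06). In air it had 1683, 1507, 1598 and 1505 in Tet2-deficient cells, against 372, 344, 196 and 208 in WT cells (2.54 ± 0.22, adjusted p = 2.68e-07), and the genotypes lay far apart in both conditions. Id3 (0.70 ± 0.14 in physioxia, 1.20 ± 0.14 in air), the transglutaminase gene Tgm2 (1.43 ± 0.16, 1.45 ± 0.16) and Myc (0.86 ± 0.11, 0.78 ± 0.11) were higher. Timp3, a metalloproteinase inhibitor, averaged 107 ± 31.0 in Tet2-deficient and 463 ± 165 in WT physioxia (−2.08 ± 0.26, adjusted p = 1.18e-05) and 85.3 ± 11.2 in Tet2-deficient and 495 ± 116 in WT air (−2.50 ± 0.26, adjusted p = 1.84e-06). Bhlhe40, a transcriptional repressor, was lower as well (−1.38 ± 0.26 in physioxia, −1.46 ± 0.26 in air).

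**Figure D5:**
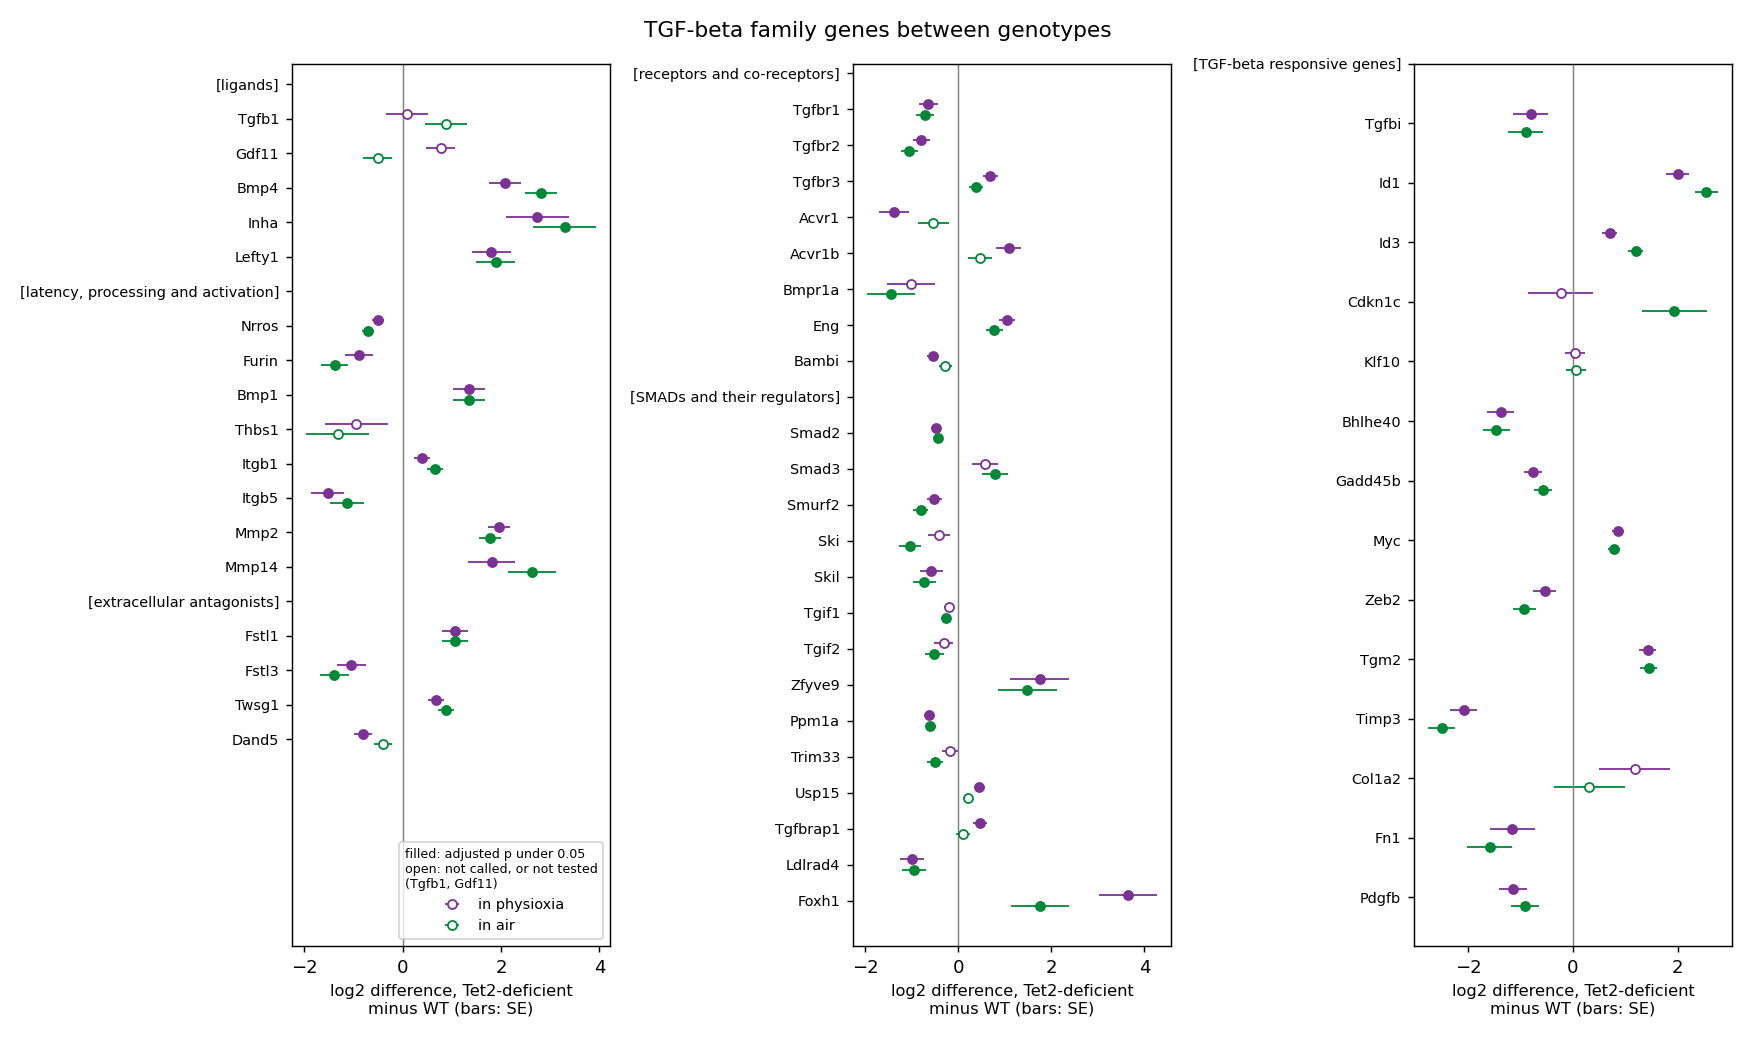
Log2 differences between Tet2-deficient and WT cells (horizontal, bars ± SE) of the TGF-beta family genes by role, in physioxia and in air. Filled points passed a limma adjusted p of 0.05, and open points did not or, for Tgfb1 and Gdf11, were not tested. Tgfbr1 and Tgfbr2 lie left of 0 and Tgfbr3 and Eng right of it in both conditions.

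Cell type markers moved with the genotype beside all of these genes. Summed erythroid counts were 112921 to 309641 in Tet2-deficient and 42306 to 74436 in WT physioxia. Those of 6 of 14 stem and multipotent progenitor markers were 13124 to 18711 in Tet2-deficient and 5512 to 9116 in WT physioxia. Those of the monocyte and macrophage markers were 8197 to 9270 in Tet2-deficient and 15326 to 32430 in WT physioxia, with C1qc at 0 in Tet2-deficient physioxia replicate 1. In air the same lists did not overlap either, at 119867 to 344817 in Tet2-deficient and 35001 to 54059 in WT cells for erythroid markers, 12940 to 18833 in Tet2-deficient and 7576 to 9441 in WT cells for stem cell markers, and 9079 to 9625 in Tet2-deficient and 14669 to 26772 in WT cells for monocyte markers. Those of 7 of 8 basophil and mast cell markers were 20075 to 26740 in Tet2-deficient and 65664 to 104913 in WT physioxia, and 17947 to 27969 in Tet2-deficient and 60153 to 101003 in WT air. The T and NK cell sums, mostly Nkg7, did not overlap either, at 18042 to 25941 in Tet2-deficient and 26904 to 43439 in WT physioxia, and 17843 to 25935 in Tet2-deficient and 29591 to 33778 in WT air. Of all 11 marker lists, the sums of Tet2-deficient libraries lay above those of WT libraries for 2 in each condition, and below them for 7 in physioxia and 6 in air. These are not counts of cell types. The B cell list held only Vpreb1, and the stromal and endothelial list only Vcam1, also a monocyte marker. By mean log2 level in physioxia, neutrophil markers, whose sums overlapped, were lower, at 8.52 to 9.12 against 10.4 to 11.1 in WT cells. Dendritic cell markers, whose sums did not overlap, did so there, at 7.88 to 8.04 against 7.87 to 9.19. The part of these shifts in the differences of the TGF-beta family genes was not tested.

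Between the oxygen conditions few TGF-beta family genes passed the test. In WT cells 2 of 51 were higher in physioxia and 0 lower (7 at an unadjusted p under 0.05), where 5.76% of all tested genes were called (4.91% higher, 0.851% lower) and 19.5% had an unadjusted p under 0.05. Mmp14, a membrane metalloproteinase that can activate latent TGF-beta1, had 88.5, 134, 42.8 and 43.5 in WT physioxia, against 8.65, 27.2, 30.8 and 17.2 in WT air (1.81 ± 0.48, limma adjusted p = 0.039). Each physioxia library lay above each air library. Cdkn1c, a cyclin-dependent kinase inhibitor of quiescent stem cells, had 24.8, 90.4, 19.5 and 13.7 in WT physioxia, against 3.85, 2.01, 9.91 and 0.957 in WT air (2.79 ± 0.62, limma adjusted p = 0.0169). Its groups did not overlap either, but the counts were low and WT physioxia replicate 2 stood far above the others. Neither gene passed without WT air replicate 2, without WT air replicate 4 or without WT physioxia replicate 2. Mmp14 also did not pass without WT air replicate 1, without WT physioxia replicate 1 or without any 1 of the Tet2-deficient physioxia libraries, which enter only through the shared estimate of spread. With the replicate number as a block over all groups only Cdkn1c was called, and with only the WT groups fitted neither was and Klf10 was called lower. With blocks for each genotype and number, which hold the WT pairs, both were called. Over all alternatives the adjusted p ran from 0.00304 to 0.354 for Mmp14 and from 0.000813 to 0.153 for Cdkn1c.

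In Tet2-deficient cells 0 of 51 passed in limma, where 0 of 6110 genes were called (0%), with 4 of the 51 at an unadjusted p under 0.05 (4.58% of all genes), and 0 of the 51 passed by edgeR or DESeq2. Mmp14 there had 215, 261, 283 and 218 in physioxia, against 73.7, 60.8, 195 and 251 in air, so that air replicates 3 and 4 were the high ones, as for Tgfb1. Klf10, a TGF-beta inducible zinc finger gene, stood at −0.58 ± 0.20 in Tet2-deficient (adjusted p = 0.934) and −0.56 ± 0.20 in WT cells (adjusted p = 0.116), physioxia minus air. Without Tet2-deficient air replicates 3 and 4 it was the 1 of the 51 family genes that passed in Tet2-deficient cells, where 152 of all genes did. None of the receptors or SMADs in the table passed in either genotype.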

How the data were processed

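The deposited file holds normalized counts, a signal the authors made by dividing the read counts of each gene by 1 size factor per library. The submitters' processing notes name FastQC, cutadapt, STAR, HTSeq, DESeq2 and GRCm38, without versions or roles. The size factor of each library was inferred from its smallest nonzero value, taken as 1 read. Multiplied by this factor, 100% of values came within 0.01 of a whole number, and these numbers were used as the read counts. How the 6288 genes were chosen is not given in the sources used here. Symbols and coordinates came from GENCODE M21 (6278 genes matched).

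The 6110 genes that reached 10 normalized counts in 4 or more libraries (178 were left out) were fitted as log2 of the count plus 1 with limma 3.58.1 (R 4.3.3, intensity trend, all 16 libraries, a mean per group, two-sided, Benjamini-Hochberg adjusted p under 0.05). Fold changes are on that scale and understate those of low genes. Alternatives included edgeR 4.0.16 and DESeq2 1.42.0 on whole reads. Of all genes, edgeR called 0 (limma 0) and 334 (limma 352) between physioxia and air in Tet2-deficient and in WT cells, and 4284 (limma 4243) and 4952 (limma 4858) between the genotypes in physioxia and in air. Replicates are called matched biological replicates in the labels.

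Deviations from the group means of same-numbered libraries correlated at 0.332, 0.178, 0.162 and 0.331 between WT physioxia and WT air, each best with its own number, so the numbers were taken as pairs there. In Tet2-deficient cells they correlated at 0.322, −0.275, 0.0423 and −0.00608, so they were not. There, physioxia replicates 1, 2, 3 and 4 correlated best with air replicates 1, 3, 4 and 2, at 0.322, 0.500, 0.154 and 0.167. Whether these best matches mark shared cells was not tested.

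The members and lists were chosen with earlier results of these data known. Named by rule were Tgfb1, Gdf11 and Tet2, ligands, receptors and SMADs with their regulators in the table, in each other list up to 6 genes by p between the genotypes in air and up to 3 in each other contrast, and for each member the 5 nearest profiles (mean count at least 50). Genes singled out for a library far from its group, and Nbl1, were named after their values were seen.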

Additional observations from a re-analysis of the deposited data

Results flagged for a closer look

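Of 216 groups of 4 libraries examined (4 groups for each of 54 genes), 12 had 1 library far from the other 3, and chance alone gives about 1 in 20. The measure was the gap from that library to its nearest neighbour over the whole range of the group. Tgfb1 and Gdf11 were not among them. In Tet2-deficient physioxia, Bmp4 stood at 53.2 in replicate 1 and 28.1 to 30.1 in the others (0.920), Zeb2 was high in replicate 1 (0.881) and Col1a2 was high in replicate 4, at 162 with 10.9 to 32.4 in the others (0.857). In Tet2-deficient air, replicate 3 was low in Tgfbi (0.839) and high in Gadd45b (0.926), and replicate 4 was high in Cdkn1c, at 38.1 with 8.68 to 13.0 in the others (0.853), and low in Myc (0.961). In WT physioxia, replicate 2 was low in Eng (0.831) and Tgif1 (0.908) and high in Cdkn1c (0.855), and replicate 1 was high in Fn1, at 800 with 180 to 249 in the others (0.888). In WT air, replicate 1 was high in Itgb5 (0.837).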

How the results depend on the processing

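The Tgfb1 and Gdf11 oxygen differences in WT cells kept their direction and moved by less than the spread between replicates under every alternative run, at 1.37 to 1.52 and −1.43 to −1.24 under other scalings, filters and tools. Those of the Tet2-deficient air group did not. Without Tet2-deficient air replicates 3 and 4, the oxygen difference in Tet2-deficient cells was 1.63 for Tgfb1 and −0.52 for Gdf11, the genotype difference in air was −0.017 and −0.049, and the difference between the oxygen effects was 0.11 and 0.82, and 1 other family gene, Klf10, was called lower in physioxia in Tet2-deficient cells. For the pair, the direction of these shifts follows from leaving out the libraries highest in Tgfb1 and lowest in Gdf11 of the group. Leaving out 1 library at a time, Tgfb1 ranged over 0.31 to 1.09 (physioxia minus air, Tet2-deficient), 1.31 to 1.85 (WT), −0.03 to 0.25 (genotype, physioxia), 0.52 to 1.30 (genotype, air) and −1.21 to −0.43 (interaction), and Gdf11 over −0.23 to 0.10, −1.56 to −1.19, 0.67 to 0.91, −0.73 to −0.34 and 1.11 to 1.50.

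The 2 family genes called between oxygen conditions in WT cells became 1 with a minimum count of 50, 1 with the replicate number as a block (Cdkn1c), 1 with only the groups of the contrast (Klf10, lower), 0 without WT air replicates 1 and 2, 0 with every annotated gene counted as unchanged, and 0 to 2 with 1 library left out. Cells of each genotype and number as a block, chosen after seeing the data, gave 2. That block was run only for the oxygen differences and the interaction, not for the genotype counts. The family counts between oxygen conditions in Tet2-deficient cells and for the interaction stayed at 0. The genotype counts were 35 to 44 in air and 36 to 41 in physioxia with 1 library left out. With every annotated gene counted as unchanged they were 27 in air and 30 in physioxia. Calls over all genes in those runs are not given here, so the counts are not read as an excess or a lack. Quantile normalization moved the median of all genes between genotypes in air to 0.12, against 0.24. The cause of these changes was not tested. Gdf11 counts of 28 to 104 reads limit its precision.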
